A study of Mus musculus with 5 samples.

Results

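The 8 genes of MHC class II antigen presentation described here are H2-Aa, H2-Ab1, H2-Eb1, Cd74, H2-DMa, H2-DMb1, Ciita and Ctss, taken by symbol from the 27998 genes shared by 5 single-cell count tables. Each table is 1 library of spinal cord cells from Col1a1GFP mice on a C57/BL6 background, sorted by FACS for the GFP reporter after the cord was dissociated. Healthy 1, Healthy 2 and Healthy 3 came from healthy mice, and EAE 1 and EAE 2 from mice with EAE (experimental autoimmune encephalomyelitis, an immune attack on the myelin of the central nervous system). The promoter of a fibrillar collagen gene drives the reporter in all groups, so the sort selects collagen-producing cells, and immune cells are seen here only where they passed that gate. The labels give no age, sex or time after induction, and nothing in them says that libraries of 1 group came from separate mice, so the tests compare libraries and their spread may be technical only.

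MHC class II molecules are surface heterodimers of an alpha and a beta chain that show peptides from engulfed proteins to CD4+ T cells. The chains assemble on the invariant chain, which blocks the peptide groove until proteases of the endosome, cathepsin S among them, trim it to a short fragment; the H2-DM chaperone then exchanges that fragment for peptide. The coactivator encoded by Ciita switches on the genes of the chains, the invariant chain and H2-DM. It does so constitutively in dendritic cells and B cells and after interferon gamma in macrophages and in many stromal cells.

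H2-Aa and H2-Ab1 encode the alpha and beta chains of the I-A molecule, and H2-Eb1 the beta chain of I-E, whose alpha chain is not made in the C57/BL6 strain. Cd74 encodes the invariant chain, H2-DMa and H2-DMb1 the chains of H2-DM, and Ctss cathepsin S. The 5 H2 genes lie together on chromosome 17, with H2-DMa at 34119541 to 34139101, H2-DMb1 at 34153072 to 34160230, H2-Ab1 at 34257689 to 34269419, H2-Aa at 34282744 to 34287823 and H2-Eb1 at 34305867 to 34316674 (GENCODE annotation, GRCm38). Ctss lies on chromosome 3 at 95526786 to 95556403 and Ciita on chromosome 16 at 10480059 to 10528418. All are annotated as protein-coding.

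Class II promoters are known for an X box, bound by the RFX complex, followed at a set distance by a Y box, bound by NF-Y; CIITA docks on this assembly. RefSeq promoters (GRCm38.p6, 250 bases before to 50 after the start) were matched for H2-Aa, H2-DMa, H2-DMb1, H2-Eb1 and Ctss, 5 of the 8 genes, and not for H2-Ab1, Cd74 and Ciita. The letters GNAACT and, 20 to 30 bases further on, GATTGG were searched on both strands as short patterns for the X and Y boxes. They were chosen after these promoters were read. The 3 windows that held both are shown because the same spaced pair recurs in genes of different roles, with the pattern letters in capitals.
H2-Aa, chr17:34287852-34287919, minus strand: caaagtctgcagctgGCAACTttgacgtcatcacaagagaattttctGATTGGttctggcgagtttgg
H2-DMb1, chr17:34153082-34153149, plus strand: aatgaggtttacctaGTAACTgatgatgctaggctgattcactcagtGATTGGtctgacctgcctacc
H2-Eb1, chr17:34305761-34305827, plus strand: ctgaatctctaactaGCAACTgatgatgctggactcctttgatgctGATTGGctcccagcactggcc

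The 2 patterns were 26 bases apart in H2-Aa and H2-DMb1 and 25 apart in H2-Eb1. Of 32851 promoters of the same length, 67 (0.204%) held the spaced pair, while 42.8% held the X pattern alone or with it and 16.1% the Y pattern. Both promoters of H2-DMa and the promoter of Ctss lacked the spaced pair of letters. The Ctss promoter held the letters GAAA, then 2 bases of any kind and GAAA again, a short pattern for the elements through which interferon-induced factors act, which were present in 3.44% of promoters. A match of this kind is a description of letters and not of a bound site. No matched promoter held both the spaced pair and the interferon pattern, so their positions cannot be compared.
Ctss, chr3:95526750-95526785, plus strand: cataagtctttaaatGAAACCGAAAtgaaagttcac

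Libraries of the first batch shared barcodes: 996 were common to Healthy 1 and Healthy 2, 1239 to Healthy 1 and EAE 1, and 683 to Healthy 2 and EAE 1, against 0 to 5 for the other pairs of libraries. Each of these was kept only in the first-batch library where its UMI (unique molecular identifier, 1 per captured RNA molecule) total was highest. After that and the filters on genes and mitochondrial UMIs, 724, 429 and 374 barcodes were left in the Healthy libraries, against 1913 in EAE 1 and 1238 in EAE 2, with kept totals from 1053418 to 10093523 UMIs. Levels are CPM, a gene's UMIs per 1000000 UMIs of all genes in the gate, and intervals of 95% cover counting error only.

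Cells were gated by summed UMIs of marker lists that contain none of the 8 genes. The immune gate (pan-leukocyte genes such as Ptprc and Tyrobp) held 1, 1 and 0 cells in the Healthy libraries (1 to 3 in order) and 129 and 28 in EAE 1 and EAE 2. That was 6.74% of EAE 1 and 2.26% of EAE 2, and the 0 of 374 cells in Healthy 3 allows a share of up to 0.802%. The fibroblast gate (collagen genes, Dcn, Lum and Pdgfra) held 634, 369, 318, 1185 and 854 cells in the same order. The mural gate (pericyte and smooth muscle genes such as Rgs5 and Myh11) held 27, 34, 24, 157 and 98. Another 13 and 4 cells of EAE 1 and 2 carried both immune and stronger fibroblast signal and were kept apart as mixed, and 254 to 429 EAE cells met no gate. Cells that met no gate made up 22.4% and 20.5% of EAE 1 and 2, against 8.56%, 5.83% and 8.56% of Healthy 1 to 3. The fibroblast gate allowed at most 1 mural-list UMI, so fibroblast-rich cells with more than 1 but fewer than 5 met no gate. Fibroblast values without that mural limit were not measured.

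The labelled cell type was checked in each gate, and the mural gate of the EAE libraries went partly against its name. Its fibroblast-list level was 25242 and 24837 CPM, close to that of a fibroblast, against 4264, 1835 and 6982 CPM in Healthy 1 to 3. The mural sum reached the fibroblast sum in 48 of 157 and 28 of 98 EAE cells, and in 24 of 27, 32 of 34 and 20 of 24 Healthy cells. Mural values are therefore also given for cells whose mural sum was at least their fibroblast sum, a limit added after these values were seen.

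In EAE, the class II genes summed as a core were concentrated in the few immune-gated cells. The core sum (H2-Aa, H2-Ab1, H2-Eb1 and Cd74) had 9849 UMIs in EAE 1, of which the 129 immune-gated cells held 9134 (92.7%), and 505 in EAE 2, of which 28 cells held 301 (59.6%). Fibroblast-gated cells held 203 (2.06%) and 79 (15.6%), and mural-gated cells 32 (0.325%) and 18 (3.56%). Mixed cells held 291 and 0, and cells that met no gate 189 (1.92%) and 107 (21.2%). For single genes of EAE 1 the immune-gate share ran from 77.8% (Ciita) to 94.5% (H2-Aa). In EAE 2 it ran from 18.8% of 16 UMIs (H2-DMb1, with 50% in the fibroblast gate) to 84.0% of 194 (Ctss). Ciita had 0 UMIs in EAE 2. The 3 gates ranked in the same way in both libraries for UMIs of the core, but the fibroblast gate also held more cells than the mural gate. As levels, the core stood at 18993 and 3391 CPM in the immune gate. It stood at 36.7 and 18.7 CPM in the fibroblast gate and at 32.2 and 17.6 CPM in the mural gate. In cells that met no gate the core stood higher than in these 2 gates, at 63.6 and 56.1 CPM. There 1 cell held 48 of the 107 core UMIs of EAE 2.

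The genes of the I-A molecule were abundant in the immune gate of EAE 1 and scarcer in that of EAE 2. H2-Aa stood at 3419 CPM (3255 to 3588) in EAE 1 and 428 CPM (303 to 588) in EAE 2, against 3.97 and 3.56 CPM in fibroblast-gated cells and 3.02 and 0.977 CPM in mural-gated cells. H2-Ab1 stood at 4598 and 338 CPM in the immune gate, 7.59 and 2.13 CPM in the fibroblast gate and 10.1 and 2.93 CPM in the mural gate. In every case the immune value lay above both others, and the fibroblast and mural values lay within a few CPM of each other.

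The I-E beta chain and the invariant chain showed the same order. H2-Eb1 stood at 2520 and 214 CPM in the immune gates of EAE 1 and 2, at 5.06 and 3.56 CPM in the fibroblast gates and at 3.02 and 1.95 CPM in the mural gates. Cd74 stood at 8457 and 2411 CPM, 20.1 and 9.49 CPM, and 16.1 and 11.7 CPM in the same gates. For Cd74 the counting intervals of the fibroblast and mural gates overlapped in both libraries.

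The peptide-loading genes followed. H2-DMa stood at 672 and 203 CPM in the immune gates, 3.43 and 1.66 CPM in the fibroblast gates and 2.01 and 2.93 CPM in the mural gates. H2-DMb1 stood at 509 and 33.8 CPM, the second from 3 UMIs only, then at 4.70 and 1.90 CPM in the fibroblast gates and at 3.02 CPM and 0 in the mural gates. H2-DMb1 has a close copy, H2-DMb2, and how shared reads were assigned is not given in the sources used here, so its values are uncertain.

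Ctss, the protease, stood at 1300 CPM (1200 to 1406) in the immune gate of EAE 1 and 1836 CPM (1565 to 2141) in that of EAE 2, but 1 cell held 77 of the 163 UMIs of EAE 2. Without the cell of most Ctss UMIs in each library, a setting chosen after seeing the data, the order turned, at 1227 and 1097 CPM. A Ctss UMI was seen in 102 of 129 cells (79.1%) of EAE 1 and 11 of 28 (39.3%) of EAE 2. It stood at 2.17 and 2.37 CPM in the fibroblast gates and 2.01 and 3.91 CPM in the mural gates. Ciita, the coactivator, was barely captured, with 14 UMIs in the EAE 1 immune gate (29.1 CPM), 0 in that of EAE 2, 2 in EAE 1 fibroblast-gated cells and 0 in mural-gated cells. The 0 of EAE 2 immune cells allows up to 33.8 CPM, above the EAE 1 value, so no difference in Ciita was detectable at this depth.

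**Figure D1:**
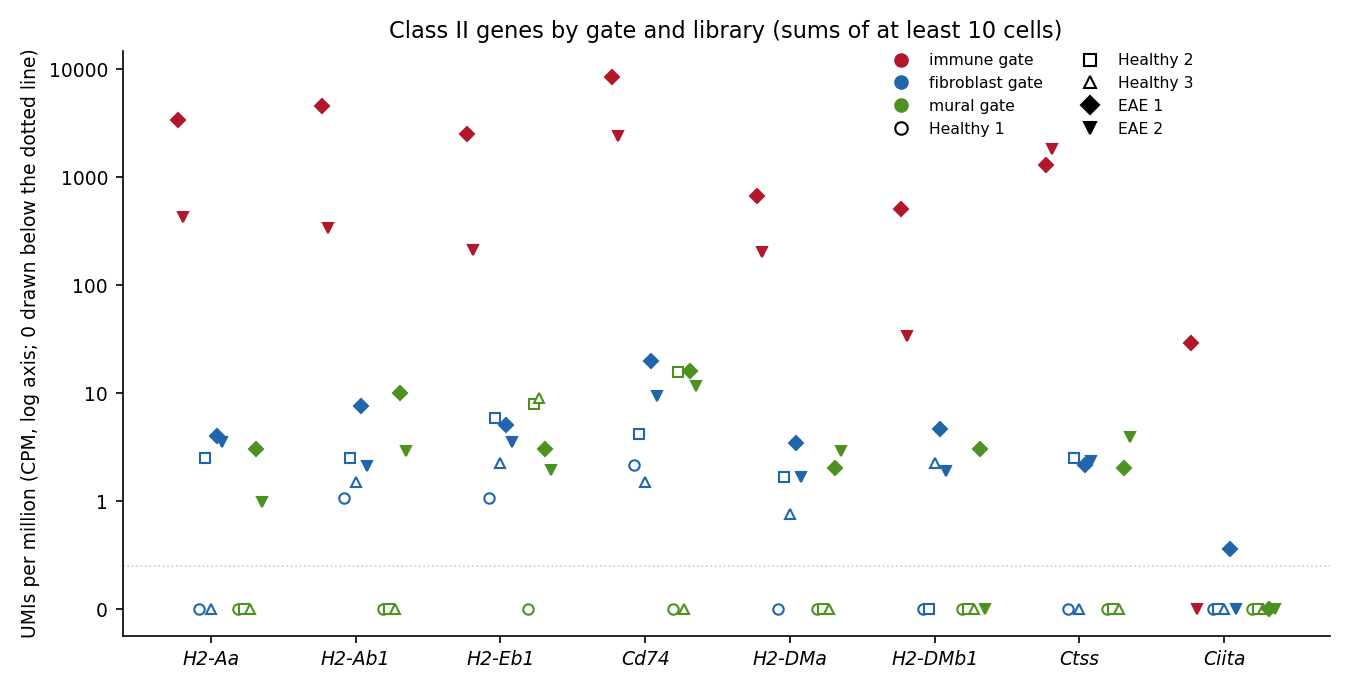
CPM of each gene (log axis, values of 0 below the dotted line) in the immune, fibroblast and mural gates, 1 point per library with at least 10 cells, open symbols for Healthy and filled for EAE. The immune points of the 7 genes other than Ciita lie between 33.8 and 8457 CPM, above every fibroblast and mural point, whose highest value is 20.1 CPM.

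Immune-gated cells were compared with the other gates by edgeR's quasi-likelihood test on UMI sums, with library as a term and Benjamini-Hochberg adjustment over 9631 genes. All 7 genes that passed the filter on low counts were higher than in fibroblast-gated cells, where 14.4% of all genes tested were higher and 24.7% lower, and all 7 were higher than in mural-gated cells, where 11.6% were higher and 21.7% lower. Ciita did not pass the filter. The 7 genes passed it through the immune gate, where they are high. These counts, the medians over the 7 genes and the adjusted p of each gene are therefore descriptions. Against fibroblast-gated cells the log2 difference was 9.29 for Ctss (SE 0.421, adjusted p = 1.99e-19), 8.58 for H2-Ab1 (SE 0.505, adjusted p = 3.38e-11), 8.54 for H2-Aa (SE 0.826, adjusted p = 0.000335) and 8.33 for Cd74 (SE 0.376, adjusted p = 5.89e-18). It was 7.82 for H2-Eb1, 7.37 for H2-DMa and 6.35 for H2-DMb1, with adjusted p of 0.00417 at most.

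The median log2 difference was 8.33 over the 7 genes and -0.27 over all genes tested. Against mural-gated cells the 7 log2 differences lay between 7.40 (H2-DMa) and 9.67 (H2-Aa), with a median of 8.41 against -0.25 over all genes. The size rests on which library is read: with EAE 1 alone the difference from fibroblast-gated cells was 9.76 for H2-Aa and 8.98 for H2-Eb1, and with EAE 2 alone 6.67 and 5.67, values with no test. H2-Ab1 missed the threshold without the library term (8.99, adjusted p = 0.0501 by edgeR).

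Among immune-gated cells, class II UMIs were uneven from cell to cell. In EAE 1, 103 of 129 cells (79.8%, exact binomial interval 71.9 to 86.4%) had a core UMI, the median was 29 core UMIs, the highest was 370, and 84 cells had at least 10. In EAE 2, 7 of 28 cells (25%, 10.7 to 44.9%) had a core UMI, the median was 0, the highest was 95, and 6 cells had at least 10. With each cell thinned to 1000 UMIs the shares were 73.6% and 25%, so the 2 libraries stayed apart at equal depth.

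The mix of immune cells differed between the libraries in the same direction. Cells marked by myeloid genes (at least 2 UMIs of genes such as Lyz2, Aif1 and C1qa, and more than of lymphocyte genes) numbered 76 in EAE 1, with 28518 core CPM and a median of 69 core UMIs. In EAE 2 there were 5, with 5566 core CPM and a median of 7. Lymphocyte-marked cells (genes such as Cd3d, Nkg7 and Cd79a) numbered 48 and 20, with 5272 and 1547 core CPM. Of these, 24 and 18 had no core UMI.

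Lymphocyte-marked cells were also read by the genes that marked them, with at least 2 UMIs of T and NK cell genes or of B cell genes. In EAE 2, 18 cells with T and NK cell genes held 0 core UMIs and 2 cells with B cell genes held all 80. In EAE 1, 45 cells with T and NK cell genes had a median of 0 core UMIs but a sum of 954 (5444 CPM), and 5 with B cell genes had a median of 13 (8308 CPM). These 45 and 5 exceed the 48 lymphocyte-marked cells, so some cells counted in both. Cells marked by neither list numbered 5 and 3, and carried 14650 and 7079 core CPM together with 4237 and 4001 CPM of a dendritic-cell list (Flt3, Ccr7 and others), against 464 and 1355 CPM in myeloid-marked cells. B cells, macrophages and dendritic cells are the classical presenting cells.

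Within the myeloid-marked cells Ctss stood at 1984 CPM in EAE 1 and 5530 CPM in EAE 2, where the 5 cells held 151 of the 163 UMIs and 1 cell 77. In the same cells Cd74 stood at 12683 and 3882 CPM and H2-Aa at 5165 and 842 CPM. Neutrophil genes (S100a8, S100a9, Retnlg and Csf3r), which mark a myeloid cell that makes little class II at rest, stood at 151 CPM in these cells in EAE 1 and 4797 CPM in EAE 2. The part of these mixes in the differences between libraries was not tested.

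In the Healthy libraries only 2 cells met the immune gate. The 1 in Healthy 1 carried 160 core UMIs among 2632, with 33 UMIs of H2-Aa, 34 of H2-Ab1, 21 of H2-Eb1 and 72 of Cd74. The 1 in Healthy 2 carried 0 of the 8 genes and 406203 CPM of neutrophil genes. No comparison of immune cells between Healthy and EAE was made from so few cells.

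**Figure D2:**
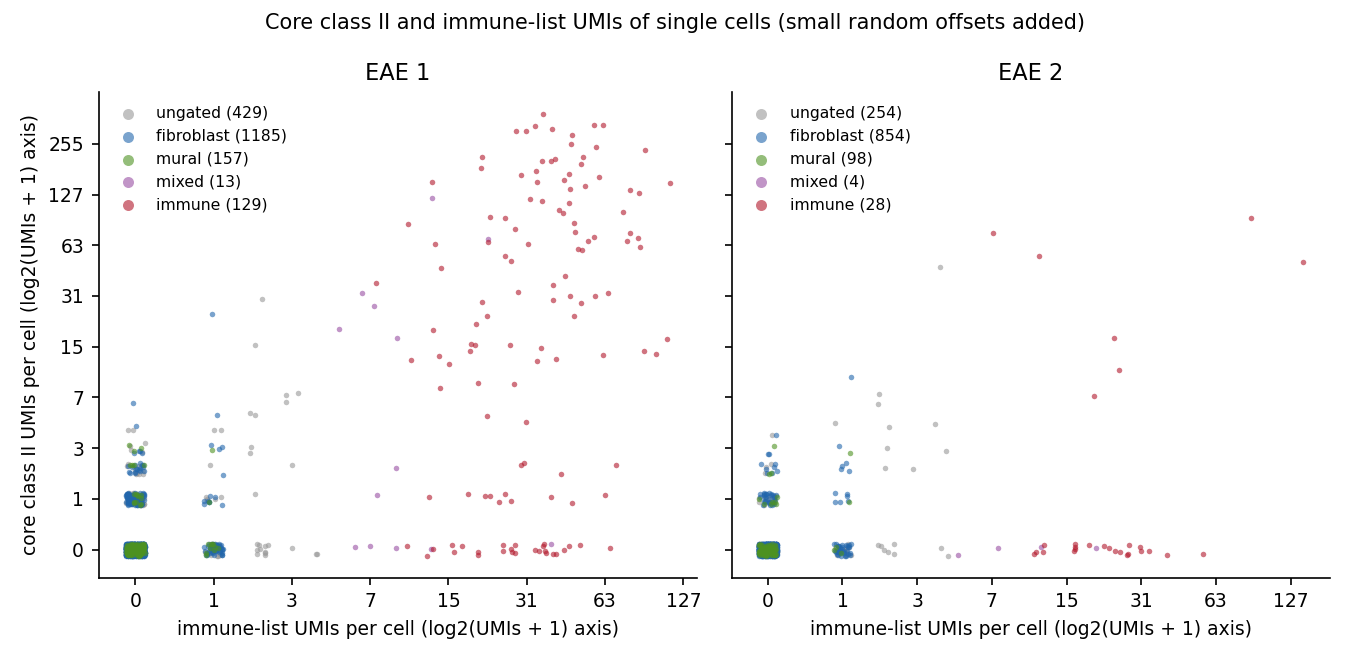
Core class II UMIs (vertical, log2(UMIs + 1) axis) against immune-list UMIs (horizontal, same kind of axis) of each EAE cell, coloured by gate, with small random offsets. Cells with over 50 core UMIs lie in the immune or mixed gates, while fibroblast-gated and mural-gated cells, limited to 1 immune-list UMI, lie at 0 to 25 core UMIs.

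Fibroblast-gated cells had low but countable class II UMIs, with the most UMIs from Cd74 in both EAE libraries. Cd74 had 2, 5 and 2 UMIs in Healthy 1 to 3 (2.15, 4.19 and 1.51 CPM) and 111 and 40 in EAE 1 and 2 (20.1 and 9.49 CPM). The EAE values were both above the highest Healthy value, and the means were 14.8 ± 7.47 CPM (SD, n = 2) and 2.61 ± 1.40 CPM (SD, n = 3). Cd74 was the only 1 of the 8 genes to pass the filter on low counts, and it passed through its EAE sums, so that this count of 1 gene supports nothing. By edgeR, with batch as a term, Cd74 rose by 2.48 on the log2 scale (SE 0.448, adjusted p = 0.00287), in a comparison in which 7.92% of 9673 genes were higher and 8.21% lower. With no filter on low counts the difference was 2.56 (SE 0.494, adjusted p = 6.69e-06 by edgeR).

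The Cd74 call was lost without EAE 1, at a log2 difference of like size (2.52, SE 1.30, adjusted p = 0.352 by edgeR), and kept without EAE 2 (2.47, adjusted p = 0.00525). With 1 EAE library left, that lone sample is assumed to vary like the Healthy ones. The limit on immune-list UMIs set its size, with a log2 difference of 3.66 with no such limit, where Cd74 stood at 52.4 and 12.7 CPM in EAE 1 and 2. With 0 immune-list UMIs allowed, Cd74 fell below the filter. Fitted with no filter, a pairing added after seeing the data, it differed by 2.03 in those cells (SE 0.530, adjusted p = 0.00204 by edgeR).

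The chains were at the edge of detection in fibroblast-gated cells. H2-Aa had 0, 3 and 0 UMIs in the Healthy libraries, against 22 for EAE 1 and 15 for EAE 2, and both EAE levels (3.97 and 3.56 CPM) lay above the highest Healthy level (2.51 CPM). H2-Ab1 had 1, 3 and 2 UMIs in Healthy and 42 and 9 in EAE. H2-Eb1 had 1, 7 and 3 in Healthy and 28 and 15 in EAE. For H2-Ab1 and H2-Eb1 the groups overlapped in CPM, since Healthy 2 stood at 2.51 and 5.86 CPM and EAE 2 at 2.13 and 3.56 CPM.

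The remaining genes were as sparse. H2-DMa had 0, 2 and 1 UMIs in Healthy and 19 and 7 in EAE, H2-DMb1 0, 0 and 3 against 26 and 8, and Ctss 0, 3 and 0 against 12 and 10. Ciita had 0 in all 3 Healthy libraries and 2 and 0 in EAE. Both EAE libraries were above all Healthy libraries for 2 of the 8 genes, H2-Aa and Cd74, where 23.4% of 17486 genes with any UMI showed this. With no filter on low counts, the log2 differences of the 7 genes other than Cd74 were all above 0 and none passed, with 2.09 for H2-Aa (SE 0.893, adjusted p = 0.115 by edgeR), 1.53 for H2-Ab1 (SE 0.708, adjusted p = 0.159) and 0.47 for H2-Eb1 (SE 0.624, adjusted p = 0.758). In sums over cells, fewer positive cells and less RNA per cell cannot be told apart.

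**Figure D3:**
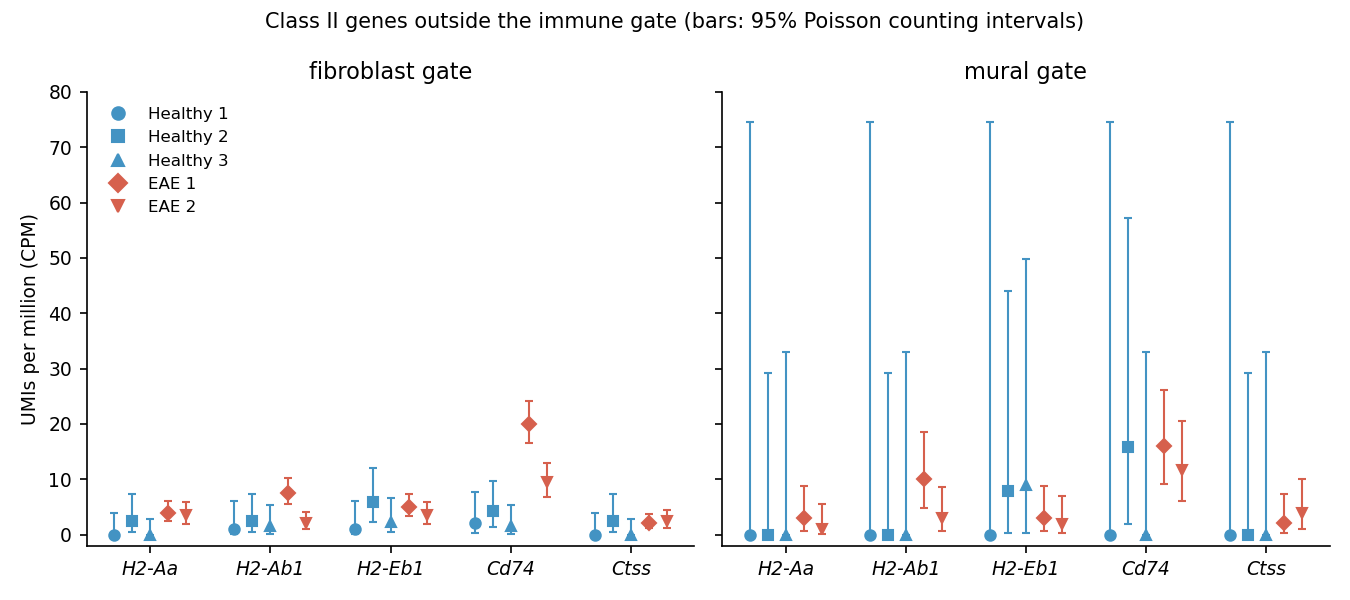
CPM of 5 class II genes in the fibroblast gate (left) and mural gate (right), 1 point per library (blue Healthy, red EAE), with bars for exact 95% Poisson counting intervals. In the fibroblast gate Cd74 stands at 1.51 to 4.19 CPM in Healthy and at 9.49 and 20.1 CPM in EAE; in the mural gate the Healthy bars span all EAE points.

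The share of fibroblast-gated cells with a core UMI was 0.631%, 3.25% and 1.89% over the Healthy libraries, against 11.4% for EAE 1 and 5.97% for EAE 2. Median depth in these cells ran from 1229 UMIs in Healthy 1 to 4538 in EAE 2. With cells thinned to 1000 UMIs, which left out 249, 20 and 9 Healthy and 0 and 44 EAE cells, the shares were 0.260%, 1.15% and 0.324% against 2.95% and 1.36%. The EAE mean was 1.58 percentage points above the Healthy mean (exact two-sided permutation test over libraries, p = 0.2, the smallest that 5 libraries allow, so the design cannot pass 0.05). Positive cells mostly had 1 core UMI: at least 2 were seen in 29 of 135 positive cells of EAE 1 and 16 of 51 of EAE 2, and at least 5 in 3 and 1.

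The EAE 1 fibroblast-gated cell with most core UMIs had 25, beside 8 lymphocyte-list UMIs and 8 fibroblast-list UMIs. The next had 6, with 86 fibroblast-list, 3 myeloid-list and 0 immune-list UMIs. The highest in EAE 2 had 9, with 91 fibroblast-list, 1 immune-list and 11 myeloid-list UMIs. With cells of at least 2 lymphocyte-list UMIs left out, Cd74 stood at 16.5 and 9.53 CPM in EAE 1 and 2, and its log2 difference from Healthy was 2.28 (SE 0.463, adjusted p = 0.00663 by edgeR).

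Core UMIs in fibroblast-gated cells moved with immune-list UMIs. In EAE 1, the 1123 cells with 0 immune-list UMIs stood at 29.7 core CPM and 10.8% had a core UMI, while the 62 cells with 1 stood at 142 CPM and 22.6%. In EAE 2, the 807 cells with 0 stood at 13.7 CPM and 4.83%, and the 47 cells with 1 at 76.6 CPM and 25.5%. The cells with 1 were deeper, at a median of 5063 against 4248 UMIs in EAE 1 and 6732 against 4387 in EAE 2. These shares were not compared at equal depth. In EAE 1 a single cell held 25 of the 49 core UMIs of the cells with 1, and in EAE 2 a single cell 9 of 26; without these cells, left out after seeing the data, the levels were 70.5 and 51.3 CPM. In the cells with 0 immune-list UMIs the core stood at 4.33, 15.2 and 3.81 CPM in Healthy 1 to 3, so that EAE 2 lay below Healthy 2 and EAE 1 above all Healthy libraries. Immune-list levels themselves were higher in EAE fibroblast-gated cells, at 11.2 and 11.1 CPM against 2.67 ± 0.503 CPM (SD, n = 3) in Healthy, and lymphocyte-list levels stood at 4.15 and 3.32 CPM against 1.39 ± 0.761. Myeloid-list levels stood at 58.2 and 47.4 CPM in EAE 1 and 2 against 23.7 ± 8.38 CPM (SD, n = 3), and endothelial-list levels at 173 and 193 CPM against 79.0 ± 8.88 CPM. Erythroid genes stood at 548 and 1.19 CPM against 33.5 ± 23.6 CPM, high in EAE 1 only. The part of these other cell types in the Cd74 values was not tested.

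RNA freed from immune cells would reach every droplet of a library, so the level in fibroblast-gated cells was set beside the level over the whole library. The core pool was 976 CPM in EAE 1 and 69.5 CPM in EAE 2, while the fibroblast-gated level was 36.7 and 18.7 CPM, or 3.76% (3.26 to 4.31%) and 27.0% (21.3 to 33.6%) of the pool. The immune list, which the gate limits, stood at 2.13% and 8.45% of its pool, and the lymphocyte list, which it does not use, at 3.80% (2.41 to 5.70%) and 8.12% (4.44 to 13.6%). In EAE 1 the core and lymphocyte percentages agree within counting error, and in EAE 2 the core percentage lay above the lymphocyte percentage with intervals apart. The lymphocyte percentages rest on 23 and 14 UMIs, and in EAE 1 the cell with 25 core UMIs held 8 of the 23. Myeloid-marked cells held 7935 of the 9134 core UMIs of the EAE 1 immune gate. The myeloid and dendritic-cell lists were not set beside their pools. The neutrophil list stood at 27.7% (18.2 to 40.2%) and 16.0% (8.74 to 26.8%), the first far above the core and the second with an interval that overlaps that of the core.

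The same percentage differed widely between other marker lists in EAE 1. Melanocyte genes stood at 0.374% of their pool in fibroblast-gated cells, and haemoglobin genes at 48.3%. With no limit on immune-list UMIs the core stood at 9.46% and 35.0% of its pool, the immune list at 7.29% and 22.0%, and the lymphocyte list at 14.5% and 24.9%. With that limit lifted, the core thus lay between the 2 lists in EAE 1 and above both in EAE 2, where its interval (28.6 to 42.3%) overlapped that of the lymphocyte list (18.1 to 33.5%).

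**Figure D4:**
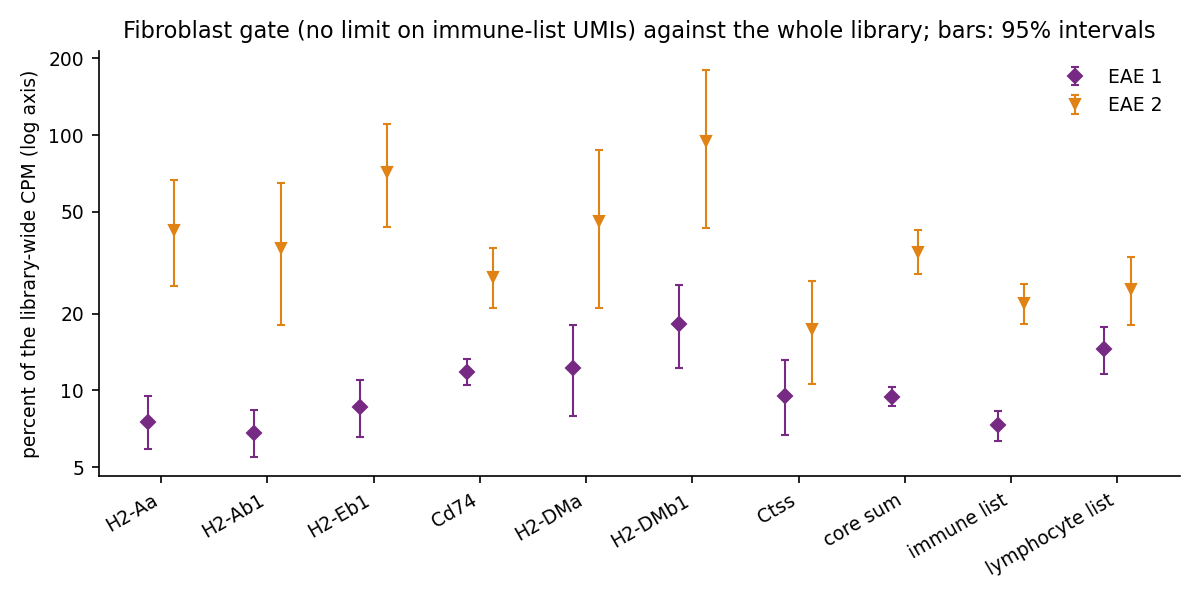
Level in the fibroblast gate, with no limit on immune-list UMIs, as a percent of the level over all cells of the library (log axis), for 7 class II genes, their core sum and 2 marker lists, with bars for 95% counting intervals. In EAE 1 the core stands at 9.46%, between the immune list at 7.29% and the lymphocyte list at 14.5%; in EAE 2 it stands at 35.0%, above both, at 22.0% and 24.9%.

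The make-up of class II UMIs differed between gates of 1 library. H2-DMb1 was 2.37% (exact interval 2.08 to 2.68%) of the UMIs of the 8 genes in immune-gated cells of EAE 1 and 9.92% (6.59 to 14.2%) in fibroblast-gated cells. In EAE 2 it was 0.619% (0.128 to 1.80%) and 7.69% (3.38 to 14.6%). H2-DMb2, its close copy, had 44 UMIs in immune-gated cells of EAE 1 and 0 in fibroblast-gated cells of all 5 libraries.

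H2-DMa was 3.12% and 7.25% in the immune and fibroblast gates of EAE 1, with intervals apart, and 3.71% and 6.73% in EAE 2, with intervals that overlap. H2-Aa went the other way in EAE 1, at 15.9% (15.2 to 16.6%) against 8.40% (5.34 to 12.4%), while in EAE 2 it was 7.84% (5.60 to 10.6%) against 14.4% (8.30 to 22.7%), the opposite direction with intervals that overlap. H2-Eb1 was 11.7% and 10.7% in EAE 1, within counting error, and 3.92% (2.37 to 6.05%) against 14.4% (8.30 to 22.7%) in EAE 2. Ctss was 33.6% (29.4 to 38.0%) of immune-gated UMIs in EAE 2 and 9.62% (4.71 to 17.0%) of fibroblast-gated UMIs. Cd74 was 39.3% and 42.4% in EAE 1 and 44.1% and 38.5% in EAE 2, within counting error in both. The fibroblast-gated UMIs therefore did not have the proportions of the immune-gated UMIs of the same library for H2-DMb1 in both libraries, for H2-Aa and H2-DMa in EAE 1, and for H2-Eb1 and Ctss in EAE 2. UMIs of 1 cell are not independent draws, so these intervals are too narrow where a few cells hold most of a gene.

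**Figure D5:**
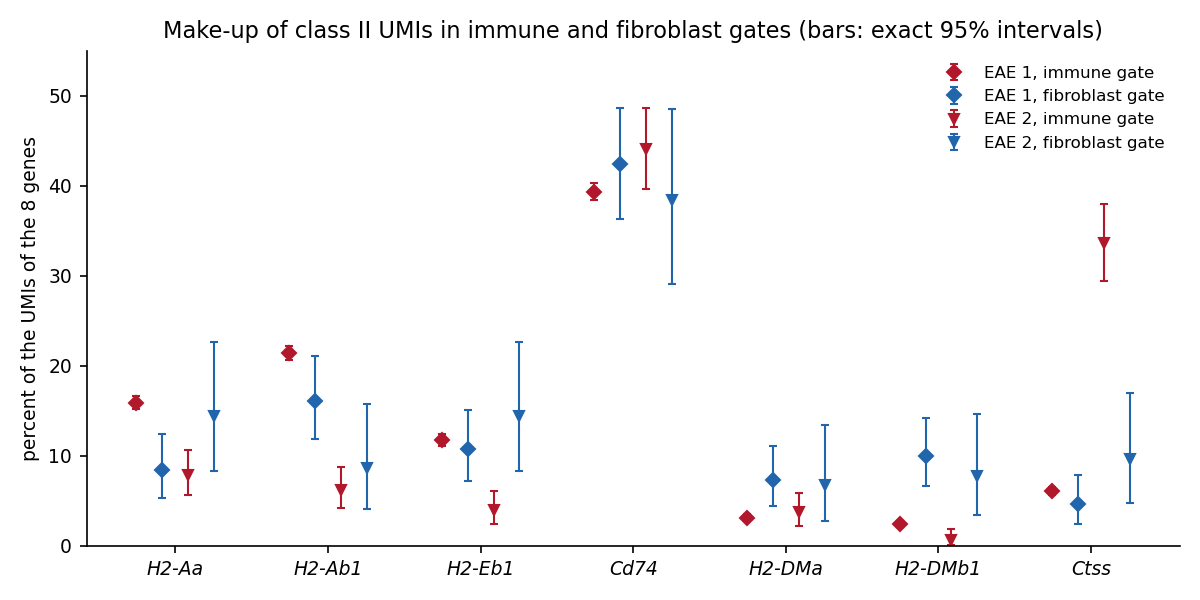
Share of each gene among the UMIs of the 8 genes (percent) in the immune gate (red) and fibroblast gate (blue) of EAE 1 and EAE 2, with exact 95% binomial intervals. H2-DMb1 stands at 2.37% and 0.619% in the immune gates and at 9.92% and 7.69% in the fibroblast gates, while Cd74 stands between 38.5% and 44.1% in all 4.

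Mural-gated cells held too few class II UMIs for a test of EAE against Healthy. Cd74 had 0, 2 and 0 UMIs in the Healthy libraries, against 16 for EAE 1 and 12 for EAE 2 (16.1 and 11.7 CPM), and the Healthy 2 level of 15.8 CPM lay between them. H2-Ab1 had 0 in all Healthy libraries and 10 and 3 in EAE, H2-Aa 0 and then 3 and 1, and H2-Eb1 0, 1 and 1 and then 3 and 2. None of the 8 genes passed the filter on low counts. The EAE values were both above the highest Healthy value for 4 genes (H2-Aa, H2-Ab1, H2-DMa and Ctss), all at 0 in Healthy, where 24% of 14794 genes showed this; a count of 0 in Healthy 1 allows up to 60.6 CPM, above every EAE value. With no filter, the log2 difference of Cd74 was 1.30 (SE 1.17, adjusted p = 0.744 by edgeR).

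Direct comparison of mural-gated with fibroblast-gated cells in EAE called none of 7 genes by edgeR, where 3.11% of genes were higher and 3.91% lower. None of the 7 had an unadjusted p under 0.05. The 7 genes were kept by a fit that shares the immune sums, where they are high. They had only 0 to 16 mural-gated UMIs per library, so this count is a description and shows no likeness of the gates. The log2 difference was -0.08 for Cd74 (SE 0.371, adjusted p = 0.956), 0.30 for H2-Ab1 (SE 0.606, adjusted p = 0.881) and -1.13 for H2-Aa (SE 1.32, adjusted p = 0.783). The gate mattered here. In the 48 and 28 EAE cells whose mural sum reached the fibroblast sum, Cd74 had 0 UMIs in both libraries, among 155338 and 158666 UMIs in all, against 20.1 and 9.49 CPM in fibroblast-gated cells. Their core sum had 5 and 2 UMIs (32.2 and 12.6 CPM).

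A count of 0 there allows up to 19.3 and 18.9 CPM. These limits lie within or above the counting intervals of the fibroblast-gated levels (16.5 to 24.1 and 6.78 to 12.9 CPM). Neither library read alone could therefore show a difference in Cd74. The edgeR fit over both libraries did call Cd74 lower in these cells, but from 0 UMIs in both mural sums its size is not measured. The 16 and 12 Cd74 UMIs of the wider mural gate all came from cells with more fibroblast-list than mural-list UMIs. The change of Cd74 with EAE did not differ between the gates beyond error (mural minus fibroblast -1.02 on the log2 scale, SE 1.42, adjusted p = 0.759 by edgeR); in this test 4.82% of 9827 genes were higher and 4.3% lower.

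Other genes of the pathway, 26 on the list of which 25 were measured, were also compared in fibroblast-gated cells. Of 16 tested by edgeR, 2 rose in EAE (7.92% of all genes did), 3 fell (8.21% of all genes) and 11 did not pass, with a median log2 difference of -0.23 against 0.00156 over all genes. Irf8, an interferon-regulated transcription factor, stood at 7.53, 2.51 and 1.51 CPM in Healthy and at 40.3 and 27.0 CPM in EAE and rose by 3.23 (SE 0.410, adjusted p = 0.000305). With all shared barcodes as deposited, Irf8 differed by 1.45 and did not pass (adjusted p = 0.101 by edgeR).

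The genes that fell were Ifi30, Ctsb and Icosl, while the other endosomal proteases of the list that were tested did not pass. Ifi30, a thiol reductase that unfolds antigens in the endosome, stood at 112, 153 and 135 CPM in Healthy and at 40.5 and 41.0 CPM in EAE, and fell by 1.83 (SE 0.231, adjusted p = 0.000299 by edgeR). Ctsb, the protease cathepsin B, stood at 1178, 1815 and 1774 CPM and at 789 and 804 CPM, and fell by 1.13 (SE 0.215, adjusted p = 0.00433). Icosl, a costimulatory ligand, fell by 1.46 (SE 0.405, adjusted p = 0.0307) from 7.53, 9.21 and 16.6 CPM to 4.34 and 4.74 CPM; it missed the threshold without Healthy 2, Healthy 3, EAE 1 or EAE 2. The groups did not overlap for Irf8, Ifi30, Ctsb or Icosl. Of 17486 genes with any UMI, 23.4% had both EAE libraries above all Healthy libraries and 11.9% had both below.

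In mural-gated cells 5 pathway genes were tested by edgeR, where 13.6% of 2492 genes were higher and 14.4% lower, and 3 rose. Ctsl, cathepsin L, which trims the invariant chain in thymic epithelium, rose by 1.32, and Ctsb by 1.15 (adjusted p = 0.0126 and 0.0273). Both lost the call without EAE 1, at 1.03 for Ctsl and 0.65 for Ctsb (adjusted p = 0.407 and 0.698 by edgeR), Ctsb also without Healthy 2 or Healthy 3, and Ctsl without Healthy 3. In cells whose mural sum reached the fibroblast sum, Ctsl differed by -0.25 and Ctsb by 0.98 (adjusted p = 0.935 and 0.421 by edgeR).

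In immune-gated against fibroblast-gated cells of EAE, 9 of 20 pathway genes tested by edgeR were higher and 2 lower, against 14.4% and 24.7% of all genes. H2-Oa, a chain of the H2-O inhibitor of H2-DM, had 15 and 1 UMIs in the immune gates of EAE 1 and 2 and 0 in all fibroblast gates, and differed by 8.56 (SE 1.36, adjusted p = 4e-06), a fitted size that depends on the prior count. Cd86, a costimulatory ligand of T cells, stood at 129 and 146 CPM in the immune gates and was higher by 8.45 (SE 0.580, adjusted p = 1.59e-14). Irf8 stood at 588 and 338 CPM and was higher by 3.74, and Cd40, a receptor for T-cell help, at 49.9 and 78.9 CPM and was higher by 3.55. Ctsl was lower, at 150 and 248 CPM in the immune gates against 1025 and 824 CPM in the fibroblast gates.

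The genes whose level over 12 sums of gate and library was most like that of the core were Rab8a (Pearson r = 0.970), Plek (0.962), Wfdc17 (0.960), Coro1a (0.958) and Pomp (0.956), among 6120 genes with a mean of at least 20 CPM. Coro1a belongs to the immune list that set the gates. The 2 immune sums are far above the other 10, so these values mostly describe the contrast between gates. Plek stood at 208 and 90.1 CPM in the immune gates of EAE 1 and 2 and at 2.01 CPM or less in fibroblast-gated and mural-gated sums, while Pomp reached 215 CPM in a fibroblast-gated sum.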

How the data were processed

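The authors deposited 5 tables of raw UMI counts per gene and barcode, 1 per library, unnormalized as their whole-number values show. Per the labels' protocols, GFP-sorted cells went into 10x Genomics v2 libraries. Cell Ranger 2.1.1, Seurat 3 and build mm10 are named by the submitters' processing notes. Which annotation was counted, and how barcodes were filtered, is not given in the sources used here. Barcodes needed 200 genes or more and no more than 10% of UMIs from mitochondrial genes, and 4678 of 7205 were left once shared barcodes were counted once. Gates used summed marker UMIs: immune at least 5, not below the fibroblast sum, at most 1 mural UMI; fibroblast at least 5, at most 1 immune and 1 mural UMI; mural at least 5, at most 1 immune UMI. UMI counts were summed per library and gate (at least 10 cells) and tested over all genes with edgeR 4.0.16 (TMM, filterByExpr, robust quasi-likelihood F test, Benjamini-Hochberg, threshold 0.05), with batch (labels with or without a lane) and state as terms between states, library within EAE, and a gate by state interaction. Scripts were tested on simulated data. No doublet caller was run; mixed cells were set apart. Intervals are Clopper-Pearson or Poisson at 95%, and limits for 0 use 3 counts. Alternatives were DESeq2 1.42.0, scaling by library totals, no filter on low counts, at least 1000 UMIs, thinning, other gate limits, all barcodes as deposited, no batch or library term, and leaving out each library. The 8 genes, the pathway list and the marker lists were chosen with earlier results of these data known. All 8 genes are named in every gate; pathway genes are named, up to 4 per comparison, by largest absolute log2 difference among those past the threshold, and Ctsb in fibroblast-gated cells, Ctsl in immune-gated cells and H2-DMb2 were named after their values were seen. H2-Ea-ps was not among the shared genes, and the lymphocyte list rested on 8 of 11 genes. One gene counted in the pathway list is not reported here by name.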

Additional observations from a re-analysis of the deposited data

Results flagged for a closer look

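The EAE effect differed between mural-gated and fibroblast-gated cells for 3 pathway genes, by edgeR's test of the gate by state interaction, in which 4.82% of 9827 genes were higher and 4.3% lower in the mural gate. The difference (mural minus fibroblast, log2) was 2.40 for Ifi30 (SE 0.530, adjusted p = 0.000225), 2.43 for Ctsb (SE 0.300, adjusted p = 2.88e-13) and 1.61 for Ctsl (SE 0.300, adjusted p = 5.78e-06). In the mural gate Ifi30 stood at 40.4, 31.6 and 17.9 CPM in Healthy 1 to 3 and at 41.3 and 31.3 CPM in EAE 1 and 2, from 2 to 4 UMIs in each Healthy library. The fibroblast list moved with the mural values, since it was higher in EAE mural-gated cells. In cells whose mural sum reached the fibroblast sum, the difference was 2.05 for Ifi30 (adjusted p = 0.37), 2.23 for Ctsb (adjusted p = 0.000152) and 0.10 for Ctsl (adjusted p = 0.988), so that Ctsb alone kept its call by edgeR there. Ifi30 also missed the threshold with cells thinned to 1000 UMIs (1.40), and Ctsl with at least 10 marker UMIs (1.34).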

How the results depend on the processing

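No paired analysis of Healthy against EAE was possible because the titles give these libraries only 1 number in common and do not say that it pairs them. The number of EAE 1 was assigned here and pairs nothing. In fibroblast-gated cells the count of class II genes higher in EAE was 1, and 0 with cells thinned to 1000 UMIs or with 0 immune-list UMIs, where none of the 8 passed the filter on low counts. Leaving out 1 library gave 0 to 1, with 0 without EAE 1. In mural-gated against fibroblast-gated cells the count lower was 0, but 1 with no limit on immune-list UMIs (H2-Aa, -2.28, adjusted p = 0.0333 by edgeR). It was also 1 where the mural sum was at least the fibroblast sum (Cd74, at 0 UMIs in both mural sums, so the size of the difference is not measured). Directions there were not stable. Thinning gave 0.70 for H2-Aa, -4.88 for H2-Ab1, 0.46 for H2-DMa and -3.19 for Ctss. For Cd74 it was 0.21 with at least 3 marker UMIs, 0.27 with at least 10 and 0.13 with 0 immune-list UMIs. H2-DMa stood at 0.074 with at least 10 marker UMIs. With no limit on immune-list UMIs, H2-Ab1 stood at -0.55 and Ctss at -0.93. In the stricter mural gate, H2-Eb1 stood at 0.19, H2-DMa at 0.22 and Ctss at -5.07. Leaving out EAE 1 or EAE 2 gave 0.30 and -0.34 for Cd74 and 0.79 and -0.78 for H2-DMa, and Ctss stood at -0.13 without EAE 2. Leaving out 1 library moved the interaction for Cd74 from -1.38 (without Healthy 3) to 4.72 (without Healthy 2, SE 6.79, adjusted p = 0.796 by edgeR). None of these reversed values passed the threshold, those that left out an EAE library had no test, and the cause was not tested. In fibroblast-gated cells Cd74 kept its direction in every fit that tested it, including 1.66 with all barcodes as deposited. The mean share of fibroblast-gated cells with a core UMI was higher in EAE under all alternatives run. The exact permutation p was 0.4 with all barcodes as deposited and with 0 immune-list UMIs. In those settings, with cells thinned to 1000 UMIs, EAE 2 lay below Healthy 2, at 1.358% against 1.376% and 0.784% against 1.16%. Healthy depth limits the class II genes: 1 UMI in a Healthy fibroblast gate is worth about 1 CPM.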
